A study of Bos taurus with 11 samples.

Results

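The genes described here are 10 targets of the hypoxia-inducible factors (HIFs) that lie outside the glycolytic pathway: BNIP3, BNIP3L, NDRG1, DDIT4, MXI1, KDM3A, P4HA1, PDK1, BHLHE40 and CITED2. They were chosen by name, as every probe whose gene symbol on the array is one of the 10, which gave 10 of 24983 gene symbols and 23 of the 43653 distinct probes. RNA came from peripheral blood mononuclear cells (PBMCs), the lymphocytes and monocytes of blood, of female cattle, 5 samples of Ladakhi cattle from high altitude and 6 of Sahiwal cattle from low altitude, the Sahiwal ones labelled as basal. Each sample was hybridised alone, in Cy3, to a bovine Agilent expression array of 60-base probes. No treatment, time or age is given in the labels for either breed, and no common factor besides cell type and sex.

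HIFs are transcription factors whose alpha subunits are hydroxylated and degraded when oxygen is plentiful and accumulate when it is scarce. Outside glycolysis, their targets limit the use of oxygen and of energy: mitochondria are removed, pyruvate is held back from the citric acid cycle, and growth signalling and transcription are reset. Some of these targets also respond to other signals in blood cells, such as glucocorticoids, cell stress or activation.

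The probes that carry the results are shown here with their positions on the cattle build Btau_3.1, as the array files give them. Whether each lies in a coding exon or an untranslated region was not analysed here. The first set is the opening 30 bases of probes of the 2 genes measured in both breeds (MXI1 and BHLHE40). It also holds the 2 with bounds of at least 2-fold under the main scaling (BNIP3L and NDRG1). BHLHE40 is shown with both of its probes because they disagree in how often Ladakhi arrays detected them.
MXI1 A_73_P060356 (chr26:31125290-31125349, plus strand): agcctaggacagcttatcatgaagcctgtg
BHLHE40 A_73_P291726 (chr22:22079618-22079677, minus strand): acttttctgacttgtccagctagccctgca
BHLHE40 A_73_118295 (chr22:22079357-22079416, minus strand): ttttttctctagggagaggtacagtgttta
BNIP3L A_73_101963 (chr8:77580315-77580374, plus strand): taacccacctgtctcttctaatgggaccag
NDRG1 A_73_P044251 (chr14:7566120-7566179, plus strand): gttgaatcagaacaagaagctgttatgtac
The second set is the pair of CITED2 probes, which overlap and so are not independent readings of the gene. Capitals mark the 29 bases they share, at the 3′ end of the first probe and the 5′ end of the second.
CITED2 A_73_110259 (chr9:79405550-79405609, minus strand): tGTGGAATGTCGTCAGTGGCAAACATTTCA
CITED2 A_73_P453846 (chr9:79405519-79405578, minus strand): GTGGAATGTCGTCAGTGGCAAACATTTCAc
No other member probe shared 25 or more bases in a row with any probe of the array.

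The arrays of the breeds differed in sensitivity. Ladakhi arrays had 9.69% to 15.1% of 43803 spots well above background, the scanner software's own detection flag, against 40.0% to 47.0% on Sahiwal arrays. The breeds were also scanned on different scanners, read by different versions of the software and hybridised on different slides. Altitude differed with breed as well, and only the Sahiwal samples are labelled basal. In every comparison here, altitude and these technical factors cannot be told apart from breed. A level below is the log2 processed signal minus the 75th percentile of its array. On Ladakhi arrays that percentile was a signal of 20.3 to 34.1, below every detected spot. On Sahiwal arrays it was 123 to 375, above the lowest detected spots. The lowest detected level averaged 1.80 ± 0.34 (SD, n = 5) on Ladakhi arrays but -2.81 ± 0.72 (SD, n = 6) on Sahiwal arrays, with Ladakhi limits of 1.42 to 2.24 by array. A signal that was not well above background is a bound and not a measurement. A fold bound sets the Sahiwal mean against Ladakhi signals raised to each array's own limit. Because these are bulk samples, fewer cells of a type and less RNA per cell cannot be told apart. The samples are called animals below, but the labels do not say that replicates were separate animals, and p-values then measure only the spread between these samples, which may be technical.

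Of the 10 genes, 9 were detected on all 6 Sahiwal arrays and 6 (BNIP3L, NDRG1, DDIT4, MXI1, BHLHE40 and CITED2) on at least 1 Ladakhi array, but only 2 on at least 4 Ladakhi arrays. Of the 23 probes, 17, from 9 of the 10 genes, were well above background on all 6 Sahiwal arrays. Of those 17, 8 were detected on 0 Ladakhi arrays, 7 on 1 to 3 and 2 on at least 4. Among all 15101 probes on all 6 Sahiwal arrays the corresponding shares were 49.1%, 24.2% and 26.8%. The members' share on 0 Ladakhi arrays was near that of the array as a whole. Their share was larger on 1 to 3 and smaller on at least 4, with only 17 probes counted. The remaining 6 probes comprised P4HA1 A_73_108355, on 4 Sahiwal arrays, and 5 probes on 0 of the 11 arrays, a state shared by 45.2% of all probes. Over the whole array, 40.9% of probes were detected on at least 4 Sahiwal arrays and 9.28% on at least 4 Ladakhi arrays. Ladakhi replicate 3 detected 8 member probes, replicate 5 detected 5, and the others 1 to 3.

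**Figure D1:**
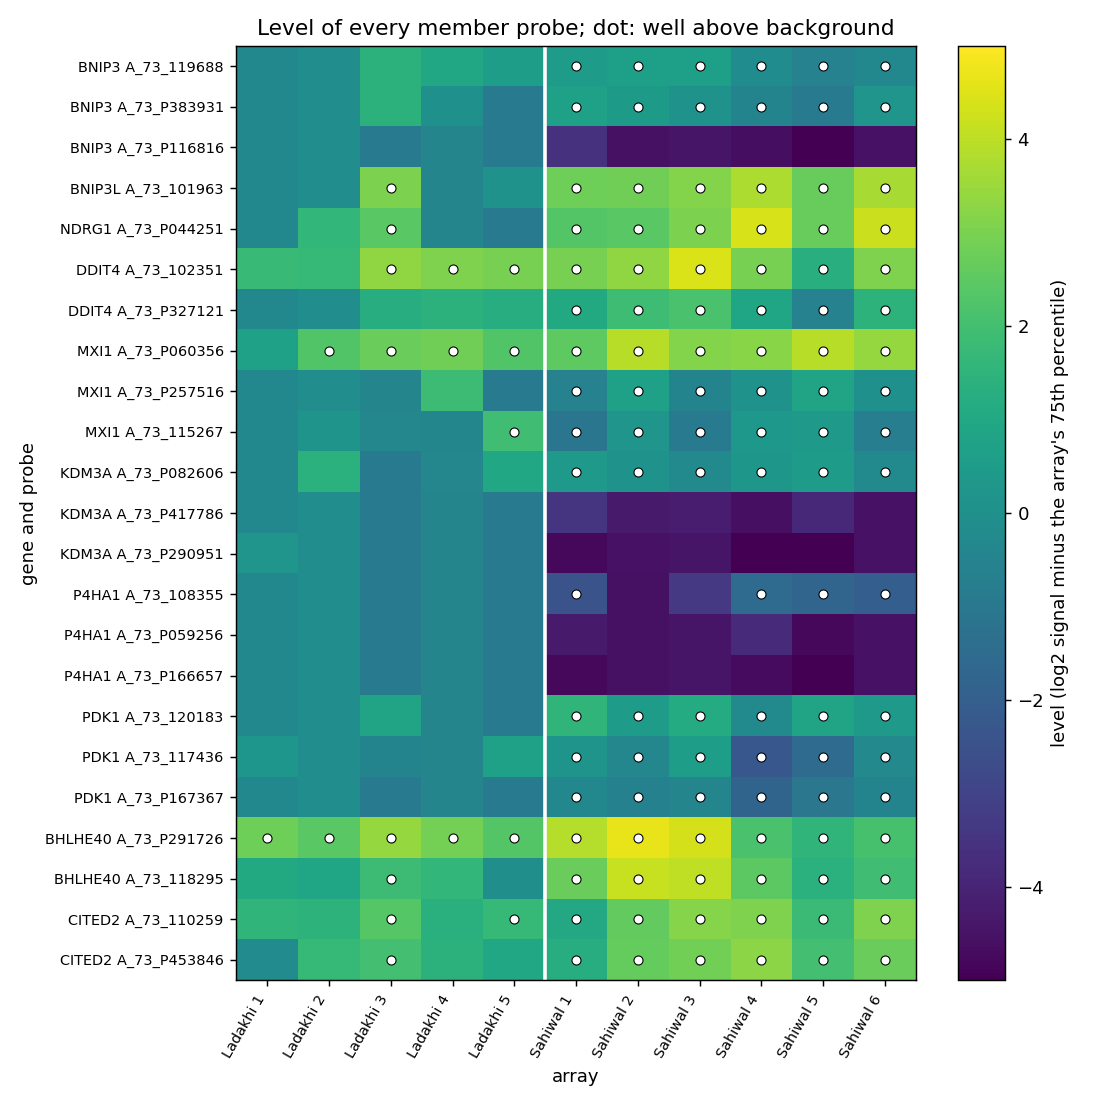
Level of all 23 member probes (rows) on the 11 arrays (columns), as log2 signal minus the 75th percentile of the array, with a dot where the spot was well above background. Dots fill 17 rows across the 6 Sahiwal arrays, while the Ladakhi side has dots on at least 4 arrays in 2 rows, 1 of MXI1 and 1 of BHLHE40.

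Only MXI1 and BHLHE40 were measured in both breeds, meaning that the scanner software flagged the gene's brightest probe as detected in 4 or more animals per breed. By limma over 17868 probes with Benjamini-Hochberg adjustment, 1 of the 2 was lower in Ladakhi cells and 0 were higher, also at an unadjusted p under 0.05. Among the 3059 genes and unnamed transcripts measured in both breeds, 14.4% were lower and 17.3% higher. With 2 genes, this share cannot be set apart from the background.

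MXI1 encodes a partner of MAX that competes with MYC for it and represses MYC targets. On Ladakhi arrays its probe A_73_P060356 had processed signals of 44.2, 129, 222, 145 and 136 in replicates 1 to 5, of which the first was not well above background. On Sahiwal arrays the signals were 2153, 3950, 1076, 2139, 4108 and 3027 in replicates 1 to 6. Raw signals also carry the difference in scanner. After scaling, Ladakhi levels averaged 2.17 ± 0.84 (SD, n = 5) while the Sahiwal average was 3.36 ± 0.53 (SD, n = 6), and the lowest Sahiwal level (2.52, replicate 1) lay among the Ladakhi levels (0.73 to 2.83).

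The MXI1 difference was -1.19 (SE 0.39, limma adjusted p = 0.0234), or 2.28-fold lower in Ladakhi cells. With dim signals raised to the limit it was -0.94 (limma adjusted p = 0.00648). The call ended under quantile normalization (-0.92, limma adjusted p = 0.0985), without Ladakhi replicate 1, the array that did not detect it (-0.83, limma adjusted p = 0.0568), and without Sahiwal replicate 2 (-1.08, limma adjusted p = 0.05003). The other MXI1 probes, A_73_P257516 and A_73_115267, were on all 6 Sahiwal arrays at mean levels of 0.11 and -0.30. A Ladakhi array could not have detected levels that low. They were detected on 0 and 1 Ladakhi arrays. The 1 detection, of A_73_115267 in Ladakhi replicate 5, was at 1.93, above every Sahiwal level of that probe (-1.08 to 0.37). Its direction is opposite to the difference of A_73_P060356. The mean of the 3 probes, which mixes that value and bounds with the measured probe, gave -0.26 (limma adjusted p = 0.492).

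BHLHE40, a transcriptional repressor of clock genes, was the 1 member detected on all 11 arrays. Its probe A_73_P291726 had Ladakhi signals of 186, 147, 361, 153 and 139 and Sahiwal signals of 5523, 6639, 2498, 1016, 788 and 1188. Sahiwal replicates 1 to 3 were high and 4 to 6 low, and the Ladakhi levels (2.32 to 3.40) fell in the gap between them (1.56 to 2.15 and 3.88 to 4.66). The breed means were 2.78 ± 0.42 (SD, n = 5) and 3.11 ± 1.34 (SD, n = 6), a difference of -0.33 (SE 0.54, limma adjusted p = 0.641) that was well within the Sahiwal spread. Its sign turned under quantile normalization (0.0189) and without both arrays of the first Sahiwal slide (0.25).

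The second BHLHE40 probe, A_73_118295, showed the same Sahiwal animals high and low but was detected on 1 Ladakhi array, replicate 3. Its difference of -1.70 (limma adjusted p = 0.0150) rests on Ladakhi signals not well above background, and with dim signals raised it was -0.91 (limma adjusted p = 0.0709). Sahiwal levels were 3.44 on average on slide 1 and 2.45 on slide 2 for this probe, and 4.27 and 2.53 for the first. The highest 3 animals span both slides.

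**Figure D2:**
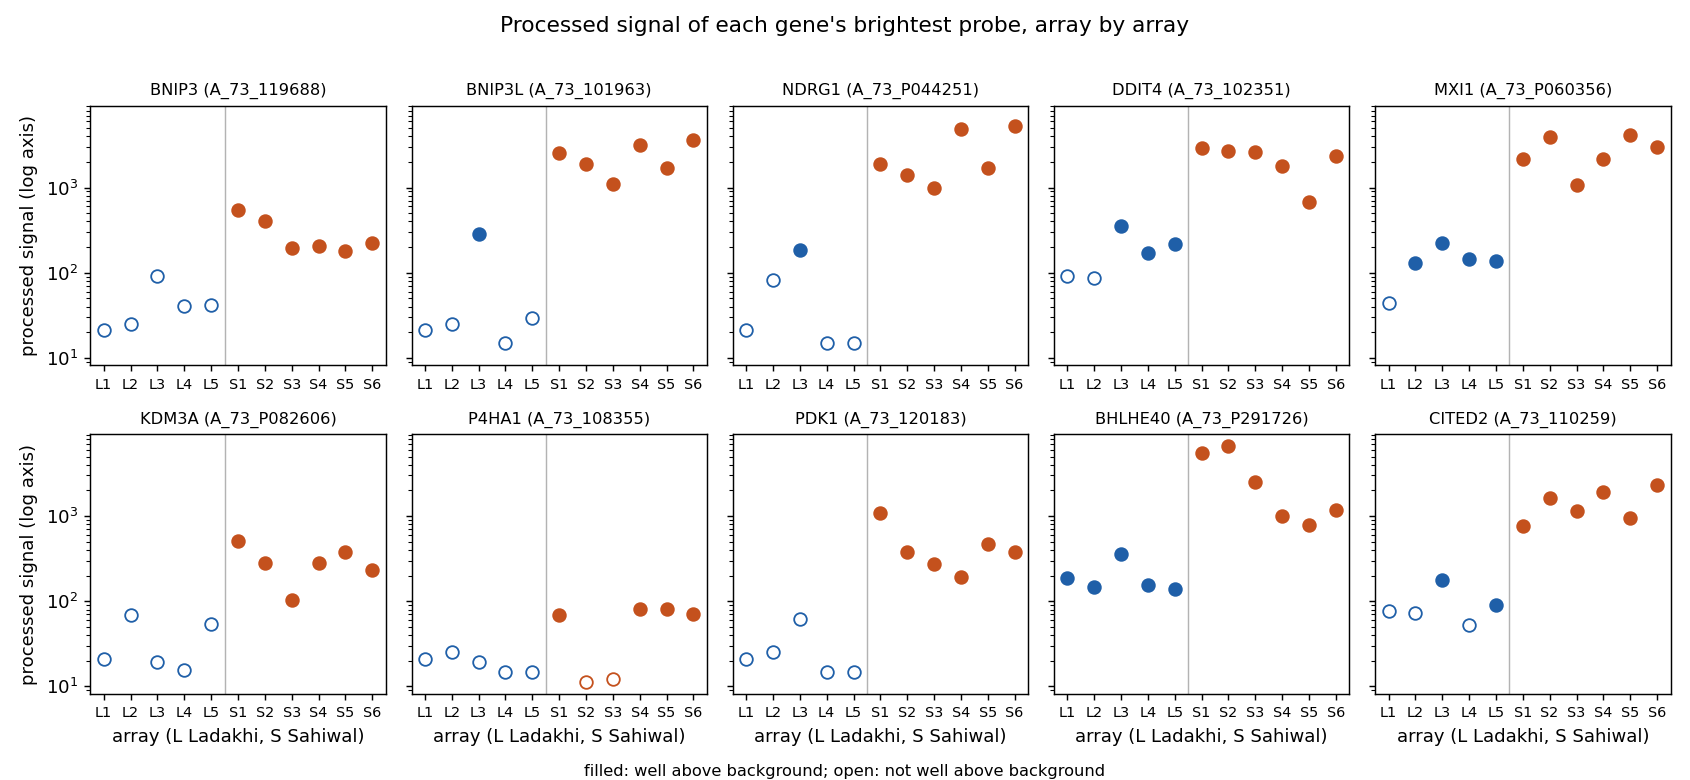
Processed signal on a log axis for the brightest probe of each of the 10 genes, with Ladakhi arrays (L1 to L5, blue) left of the line and Sahiwal arrays (S1 to S6, orange) right of it; filled points are well above background. BHLHE40 is filled on all 11 arrays and MXI1 on 10, while BNIP3, KDM3A, P4HA1 and PDK1 have open points on every Ladakhi array. Signals are not scaled between arrays, so the height of Ladakhi against Sahiwal points also holds the scanner difference.

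BNIP3L and its relative BNIP3 are outer mitochondrial membrane proteins that recruit the autophagy machinery, and BNIP3L clears mitochondria from maturing red cells. The BNIP3L probe had Sahiwal signals of 2563, 1888, 1102, 3166, 1714 and 3662, all well above background, at a level of 3.16 ± 0.48 (SD, n = 6). The Ladakhi signals were 21.2, 25.3, 281, 14.9 and 29.7. Replicate 3 alone was well above background, at a level of 3.04, inside the Sahiwal range. The bound was at least 2.06-fold lower in Ladakhi cells (difference of raised levels -1.05, SE 0.31, limma adjusted p = 0.00598). It depends on the scaling: under quantile normalization the raised difference was -0.73 (limma adjusted p = 0.0321), less than 2-fold. All Ladakhi values here except that of replicate 3 are array limits. The SE and p-value thus do not measure the spread of expression in Ladakhi cells.

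NDRG1, a stress-responsive protein of vesicle traffic and cell differentiation, had the largest bound. Its Sahiwal signals were 1882, 1422, 994, 4808, 1713 and 5249, with replicates 4 and 6 far above the other 4, at a level of 3.18 ± 0.90 (SD, n = 6). The Ladakhi signals were 21.2, 82.3, 184, 14.9 and 15.0, and replicate 3 alone was well above background, at a level of 2.43, inside the Sahiwal range of 2.33 to 4.39. The bound was at least 2.28-fold lower in Ladakhi cells (difference of raised levels -1.19, SE 0.38, limma adjusted p = 0.00994). Under quantile normalization the raised difference was -0.87 (limma adjusted p = 0.0445), also less than 2-fold. As for BNIP3L, all Ladakhi values except that of replicate 3 are array limits, so the p-value does not measure the spread of expression. Both Sahiwal arrays of slide 1 were below all 4 of slide 2, by 1.19 on average.

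Among all probes on all 6 Sahiwal arrays, 11.2% were lower in Ladakhi cells by the same test on raised signals (9.43% of all 17868 tested), and the 3 such member probes (of BNIP3L, NDRG1 and MXI1) were 3 of 17. A p-value on raised signals rests on detection limits wherever Ladakhi arrays did not detect the probe. The BNIP3L and NDRG1 probes were tested through their Sahiwal detection alone. Raising dim signals also fixes a direction for genes whose Sahiwal level lies below the Ladakhi limit. For that reason, the 9 member probes this test put higher in Ladakhi are not results.

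Marker RNA of other blood cells differed between Sahiwal animals and between breeds. The summed level of granulocyte markers was 8.68, 8.86 and 9.01 in Sahiwal replicates 3, 4 and 6 and 7.13 to 7.81 in the other 3, and 6.15 to 7.65 on Ladakhi arrays. Of the 9 granulocyte markers, 8 were detected in Sahiwal replicates 4 and 6, 3 to 5 in the other Sahiwal animals and 2 to 3 on Ladakhi arrays. Only 3 were on all 6 Sahiwal arrays (CSF3R, S100A8 and S100A12). The brightest were S100A12 and S100A8, at mean Sahiwal levels of 7.41 and 6.61. CAMP, a neutrophil granule peptide, was on 0 arrays. The monocyte marker sum was also highest in Sahiwal replicates 4 (8.48) and 6 (8.83), against 7.60 to 8.21 in the other Sahiwal animals and 7.22 to 7.68 on Ladakhi arrays. Of 5 measured monocyte markers 3 were lower in Ladakhi cells and 1 higher, CEBPA, at 10.3-fold by its brightest probe (limma adjusted p = 3.7e-06), while its second measured probe was not called.

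Levels of NDRG1 and BNIP3L were highest in Sahiwal replicates 4 and 6. CITED2 followed the granulocyte split, with A_73_110259 at 3.20, 3.08 and 3.06 in replicates 3, 4 and 6 and at 1.02, 2.61 and 1.82 in replicates 1, 2 and 5. By the overlapping CITED2 probe A_73_P453846 the gap was narrow, with replicate 6 at 2.70 and replicate 2 at 2.65. MXI1, KDM3A, BHLHE40 and PDK1 did not follow the split, being highest in replicates 5, 5, 2 and 1. Nor did DDIT4, at 3.35 in replicate 2 against 2.95 and 3.07 in replicates 4 and 6. BNIP3 A_73_119688 did not either, at 0.63 in replicate 2 against -0.16 and -0.33 in replicates 4 and 6. Of measured lymphoid markers, 2 of 5 T cell, 2 of 3 B cell and 2 of 4 NK and cytotoxic markers were called higher in Ladakhi cells by limma. Called lower were 0, also at an unadjusted p under 0.05. CD2 and CST7, at Sahiwal means of 0.19 and 1.08, lay below every Ladakhi limit. Genes at such levels count as measured only if higher in Ladakhi, so the filter fixed the direction of these calls. On raised signals, CD3E, CD3G and MS4A1, each on under 4 Ladakhi arrays, were called lower by limma. The NK and cytotoxic sum was 6.51 to 7.80 on Ladakhi and 4.20 to 6.72 on Sahiwal arrays, and the T cell sum 7.77 to 8.28 and 6.43 to 8.01.

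Without Sahiwal replicates 4 and 6, a pair picked after NDRG1 was seen to be highest in them, the raised NDRG1 difference was -0.62 (limma adjusted p = 0.0518) and that of BNIP3L was -0.75 (limma adjusted p = 0.0394). Without replicates 3, 4 and 6, the animals above the gap in the granulocyte sum, NDRG1 was at -0.49 (limma adjusted p = 0.151) and BNIP3L at -0.65 (limma adjusted p = 0.0956). MXI1 kept its size in those fits but missed the threshold (-1.21, limma adjusted p = 0.0584, and -1.29, limma adjusted p = 0.0833). These fits also have fewer samples, and the part of these cell types in the breed difference was not tested. For BNIP3L, the red cell marker sum ran from 6.35 to 7.80 on Ladakhi and from 5.47 to 7.97 on Sahiwal arrays, with HBB, HBG and GYPC well above background on all 11, ALAS2 on 2 Ladakhi and 5 Sahiwal arrays, and SLC4A1, HBM, CA1 and EPB42 on 0. The part of red cell RNA was not tested.

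**Figure D3:**
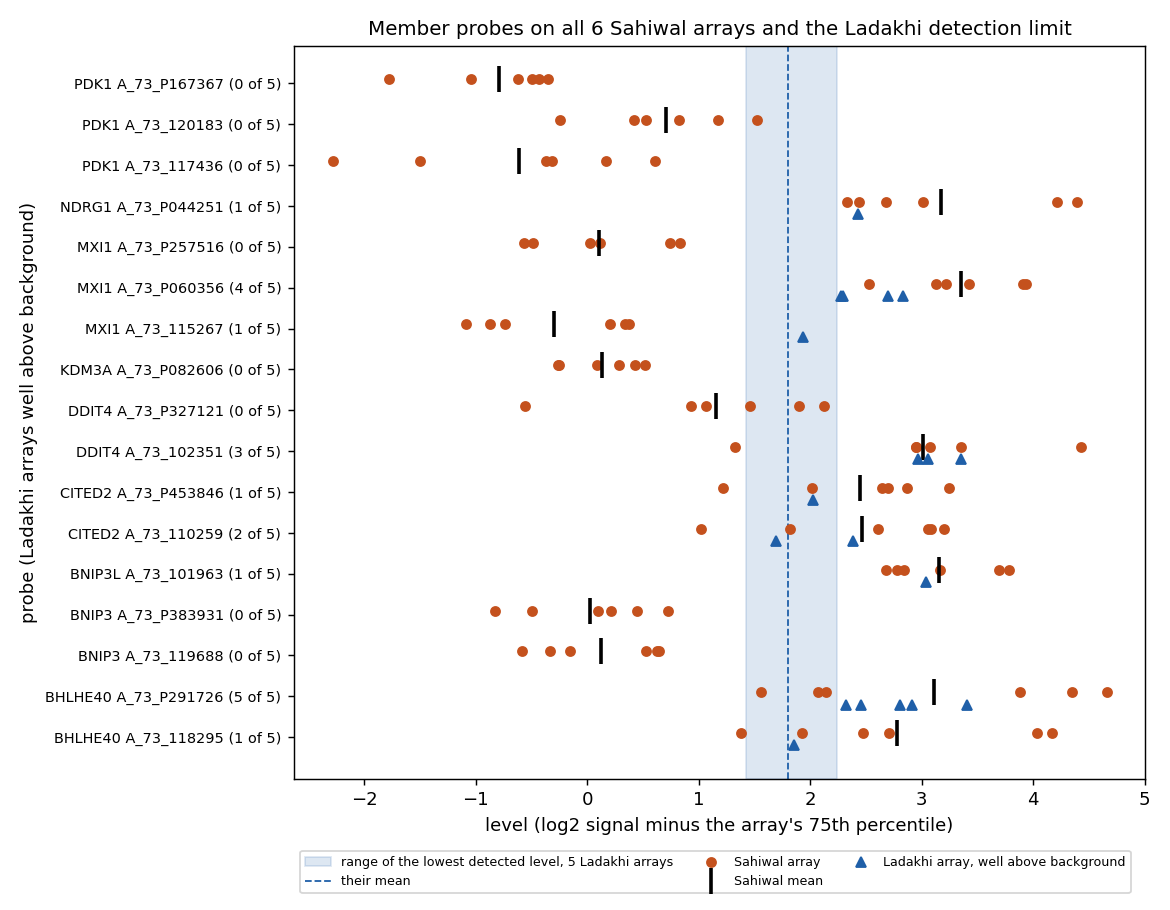
Levels (log2 signal minus the 75th percentile of the array) of the 17 member probes on all 6 Sahiwal arrays: orange points are Sahiwal arrays, black bars their means, blue triangles the Ladakhi arrays well above background, and the blue band the Ladakhi detection limits (1.42 to 2.24, mean 1.80). Every Sahiwal point of BNIP3L and NDRG1 lies right of the band, while every Sahiwal mean of BNIP3, KDM3A and PDK1 lies left of it.

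DDIT4 and CITED2 were detected on 2 or 3 Ladakhi arrays by their brighter probes, with no call on raised signals. DDIT4, which restrains mTORC1 and is induced by glucocorticoids as well as by hypoxia, was detected by A_73_102351 in Ladakhi replicates 3, 4 and 5, with signals of 91.6, 86.0, 350, 169 and 217 in replicates 1 to 5. The Sahiwal signals were 2894, 2682, 2645, 1776, 671 and 2373, and replicate 5 was the low one. Means were 2.57 ± 0.78 (SD, n = 5) and 3.01 ± 0.997 (SD, n = 6), a difference of -0.44 (SE 0.48, limma adjusted p = 0.478), with overlapping groups. The second DDIT4 probe was detected on 0 Ladakhi arrays at a Sahiwal mean of 1.15, below the Ladakhi limit.

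CITED2 competes with HIF-1 alpha for the coactivators CBP and p300. Its probe A_73_110259 had Sahiwal signals of 759, 1609, 1133, 1940, 947 and 2349, and Ladakhi signals of 77.1, 73.1, 178, 52.2 and 90.2, with detection in replicates 3 and 5. The groups overlapped in level. The difference was -0.78 (limma adjusted p = 0.125), and -0.43 with dim signals raised (limma adjusted p = 0.293). The overlapping probe A_73_P453846, detected on 1 Ladakhi array, gave -1.25 (limma adjusted p = 0.0288) and -0.54 when raised (limma adjusted p = 0.142).

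For BNIP3, PDK1, KDM3A and P4HA1 the Ladakhi arrays gave neither a level nor a direction. PDK1, a kinase that shuts pyruvate dehydrogenase, was on all 6 Sahiwal arrays with all 3 of its probes, at mean levels of 0.70, -0.61 and -0.79, and on 0 Ladakhi arrays. BNIP3 had mean Sahiwal levels of 0.12 ± 0.54 and 0.03 ± 0.58 (SD, n = 6) with A_73_119688 and A_73_P383931, and its remaining probe was on 0 arrays. KDM3A, an oxygen-dependent demethylase of histone H3, was at 0.13 ± 0.34 (SD, n = 6) with 1 probe, while its other 2 were on 0 arrays. All of these Sahiwal means lie below the Ladakhi limit of 1.80, so levels as high in Ladakhi cells would have gone undetected. None of the 8 member probes on all 6 Sahiwal and 0 Ladakhi arrays had a bound of at least 2-fold, against 1.44% of all 7411 such probes. P4HA1, a collagen prolyl hydroxylase subunit, was detected by 1 of 3 probes, in Sahiwal replicates 1, 4, 5 and 6, at signals of 69.8 to 80.4. Its fitted difference of 2.08 (limma adjusted p = 0.00330), higher in Ladakhi, compares Ladakhi signals that were all below the limit and is not a change in expression.

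In the fit without raising, 5 of the 18 member probes tested were lower in Ladakhi cells and that 1 P4HA1 probe higher, beside 18.5% lower and 25.8% higher of all 17868 probes. Of the 5, the MXI1 probe was the 1 measured in both breeds.

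Differences among the Sahiwal animals could be read more finely. Of the 6 genes with at least 2 probes on all 6 Sahiwal arrays, all 6 had the same lowest animal by every such probe, and 3 (DDIT4, MXI1 and BHLHE40) the same highest one. The lowest was replicate 5 for BNIP3, DDIT4 and BHLHE40, replicate 1 for MXI1 and CITED2 (whose probes overlap), and replicate 4 for PDK1. The members thus did not share 1 low animal.

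**Figure D4:**
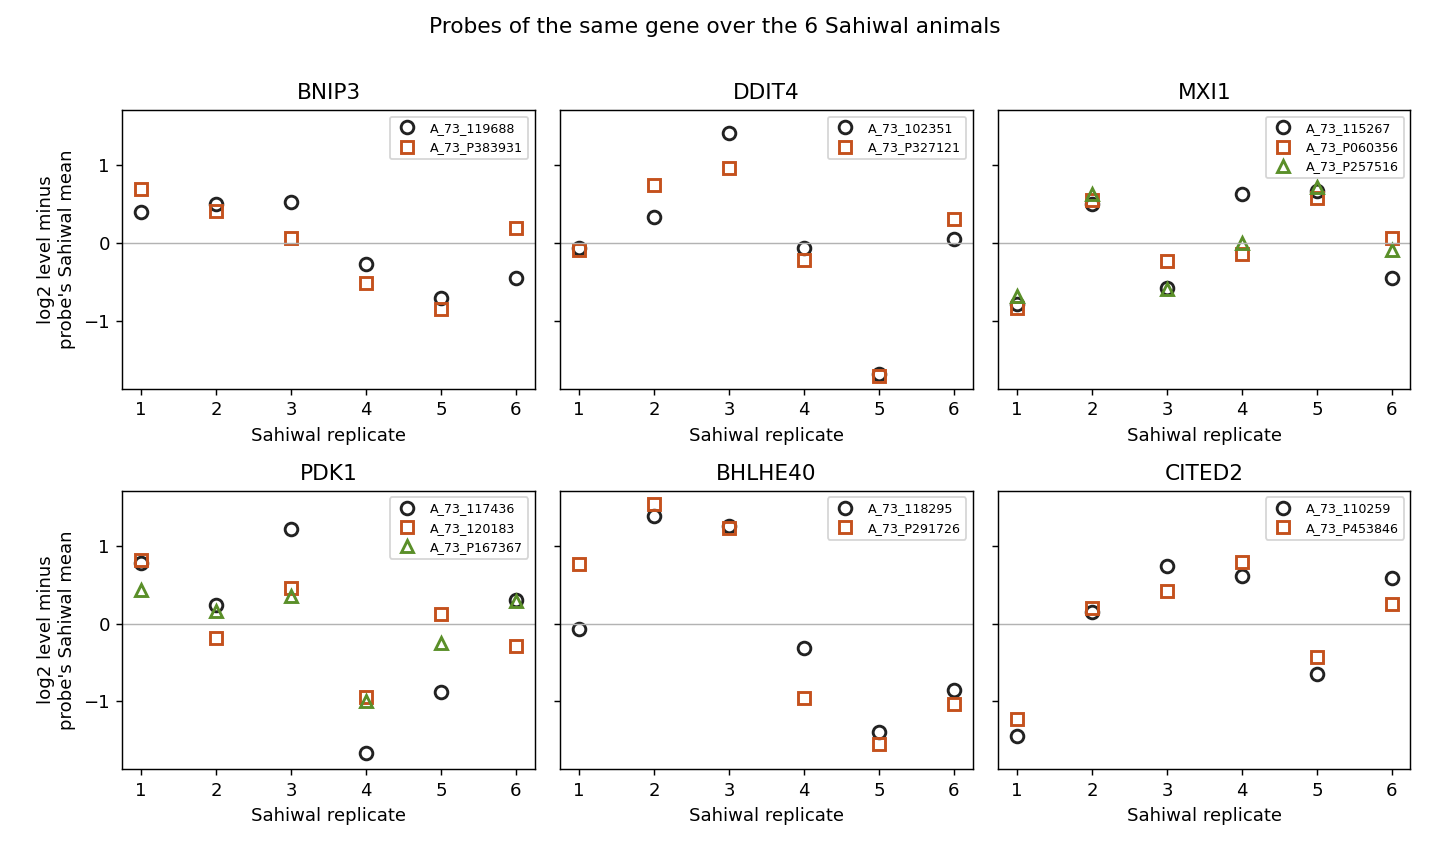
Level of each probe minus its own Sahiwal mean (log2) in the 6 Sahiwal animals, for the 6 genes with at least 2 probes on all 6 Sahiwal arrays; each symbol is 1 probe. All probes of a gene place the same animal lowest, replicate 5 for BNIP3, DDIT4 and BHLHE40, replicate 1 for MXI1 and CITED2 and replicate 4 for PDK1.

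The spread of the brightest probe across Sahiwal animals ran from 0.34 for KDM3A to 1.34 for BHLHE40 as an SD, with a median of 0.47 over 9678 genes. BHLHE40 stood at the 98.1 percentile of that distribution, DDIT4 (0.997) at the 94.3, NDRG1 at the 92.1 and CITED2 (0.87) at the 90.9. The highest signal level was 8.58-fold the lowest for both BHLHE40 and DDIT4 after scaling, and 4.17-fold for NDRG1. KDM3A was at the 23.5 percentile.

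Likeness was measured as the root mean square difference between centred profiles over the 6 Sahiwal arrays, against 9669 genes. The nearest non-member was PKNOX1 for BNIP3L (0.068), MBOAT7 for NDRG1 (0.115), ARID5A for DDIT4 (0.190), PRDM8 for MXI1 (0.191) and BCL2L1 for CITED2 (0.091). It was POP4 for BNIP3 (0.084), TRIM26 for KDM3A (0.062), VPS54 for PDK1 (0.104) and an unnamed transcript for BHLHE40 (0.134). Between members, the smallest value was 0.41, between BNIP3L and NDRG1, which both peaked in replicates 4 and 6. All 9 of these distances come from only 6 points.

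Genes around the members moved in both directions. The lists hold few genes measured in both breeds, so counts are given beside the 14.4% lower and 17.3% higher of all such genes, whose median difference was -0.03. Of the other hypoxia targets outside glycolysis, 2 of 25 on the array were measured: FAM162A, a mitochondrial protein, was higher by 1.75 (limma adjusted p = 0.00131), and WSB1 was at 0.54 (limma adjusted p = 0.204). Of HIF regulators, 2 of 3 measured genes were higher: the elongin subunit ELOB by 1.48 (limma adjusted p = 0.000886) and the HIF prolyl hydroxylase EGLN2 by 1.25 (limma adjusted p = 0.00255).

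Of the mitophagy partners of BNIP3 and BNIP3L, 8 were measured, with a median difference of -0.13, and 2 were higher. These were MAP1LC3A (1.19, limma adjusted p = 0.0310) and GABARAP (0.86, limma adjusted p = 0.0162), members of the family that BNIP3 and BNIP3L bind on autophagosomes. The MAP1LC3A call was lost without any 1 of 6 arrays, Ladakhi replicates 1, 2 and 3 and Sahiwal replicates 4, 5 and 6 (adjusted p up to 0.0797). Of the pyruvate dehydrogenase list, 1 of 3 measured genes was higher, PDK2, a sister kinase of PDK1 (1.55, limma adjusted p = 0.00181), and PDHA1 was at -0.90 (limma adjusted p = 0.218). Of the mTORC1 list, on which DDIT4 acts, 1 of 2 was higher, the translation repressor EIF4EBP1 (1.88, limma adjusted p = 0.000516). SESN2 was at 0.11 (limma adjusted p = 0.812). Sahiwal means of PDK2, EIF4EBP1 and SESN2 were 2.09, 1.81 and 2.10, within the range of Ladakhi limits (1.42 to 2.24). A gene lower in Ladakhi from such a level would mostly have missed the filter, so a lower call was hardly possible for them.

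Of the jumonji demethylases related to KDM3A, 2 of 4 measured genes were lower, with a median of -0.47. KDM5B was lower by 0.89 on the log2 scale (difference -0.89, limma adjusted p = 0.0404), a call lost under quantile normalization (-0.55, limma adjusted p = 0.191), with the median of measured probes as centre (-0.78, limma adjusted p = 0.0708) and without any 1 of 7 arrays, Ladakhi replicates 1, 2 and 4 and Sahiwal replicates 2, 3, 4 and 6 (adjusted p up to 0.0903). The other was KDM2B (-0.78, limma adjusted p = 0.0259), named here because it completes the count. KDM2A was at 0.93 (limma adjusted p = 0.0686). In the MAX network, MYC, the factor that MXI1 opposes, was not measured in both breeds but had a larger bound than any member. Its probe A_73_114860 was on 2 Ladakhi and all 6 Sahiwal arrays and was at least 9.77-fold lower in Ladakhi cells (difference of raised levels -3.29, limma adjusted p = 1.0e-06; 1 Sahiwal value was left out as an outlier spot), whereas A_73_P461976, on 0 Ladakhi arrays, gave -0.22 (limma adjusted p = 0.582). Among the measured genes (MXD4 at 0.74, limma adjusted p = 0.108, and MLX at -0.73, limma adjusted p = 0.433), neither of 2 was called, and likewise for the collagen hydroxylases (P4HB at 0.31, limma adjusted p = 0.575, and PLOD3 at 0.15, limma adjusted p = 0.660) and BHLHE41 (0.37, limma adjusted p = 0.357), the sister gene of BHLHE40.

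Of all probes on all 6 Sahiwal arrays, 11.2% were lower on raised signals. That share counts probes and includes those on at least 4 Ladakhi arrays (26.8%), so it is not a like set for the next count. Among list genes on all 6 Sahiwal but under 4 Ladakhi arrays, taken by brightest probe, 5 of 57 were lower on raised signals. They were picked by this result: MYC, the heme-degrading enzyme HMOX1 (-1.70, limma adjusted p = 3.8e-05), the kinase SGK1 (-1.95, limma adjusted p = 0.0281, and -1.89 by a second probe), JMJD6 (-0.95, limma adjusted p = 0.00336) and the mTORC1 activator RHEB (-0.55, limma adjusted p = 0.0489). Under quantile normalization, JMJD6 (limma adjusted p = 0.0533) and RHEB (limma adjusted p = 0.423) lost the call.

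The higher calls depend on the background correction. With normexp, which put the median of all measured probes at -1.53, the differences were 0.10 for FAM162A, -0.44 for ELOB, -0.29 for EGLN2, -0.61 for MAP1LC3A, -0.99 for GABARAP, -0.17 for PDK2 and 0.11 for EIF4EBP1. All 7 lay above that median, but the higher call was kept for none of them, and ELOB and GABARAP were called lower.

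Immediate early genes, which respond to handling and activation of blood cells, were measured for 11 of 20, with 5 lower and 2 higher in Ladakhi cells. IER5 (-2.89, limma adjusted p = 0.000901) and DUSP1 (-2.46, limma adjusted p = 0.00982) are the 2 named by the rule, and the IER5 size is limited by 1 saturated Sahiwal spot. Their part in the MXI1 and BNIP3L values was not tested.

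**Figure D5:**
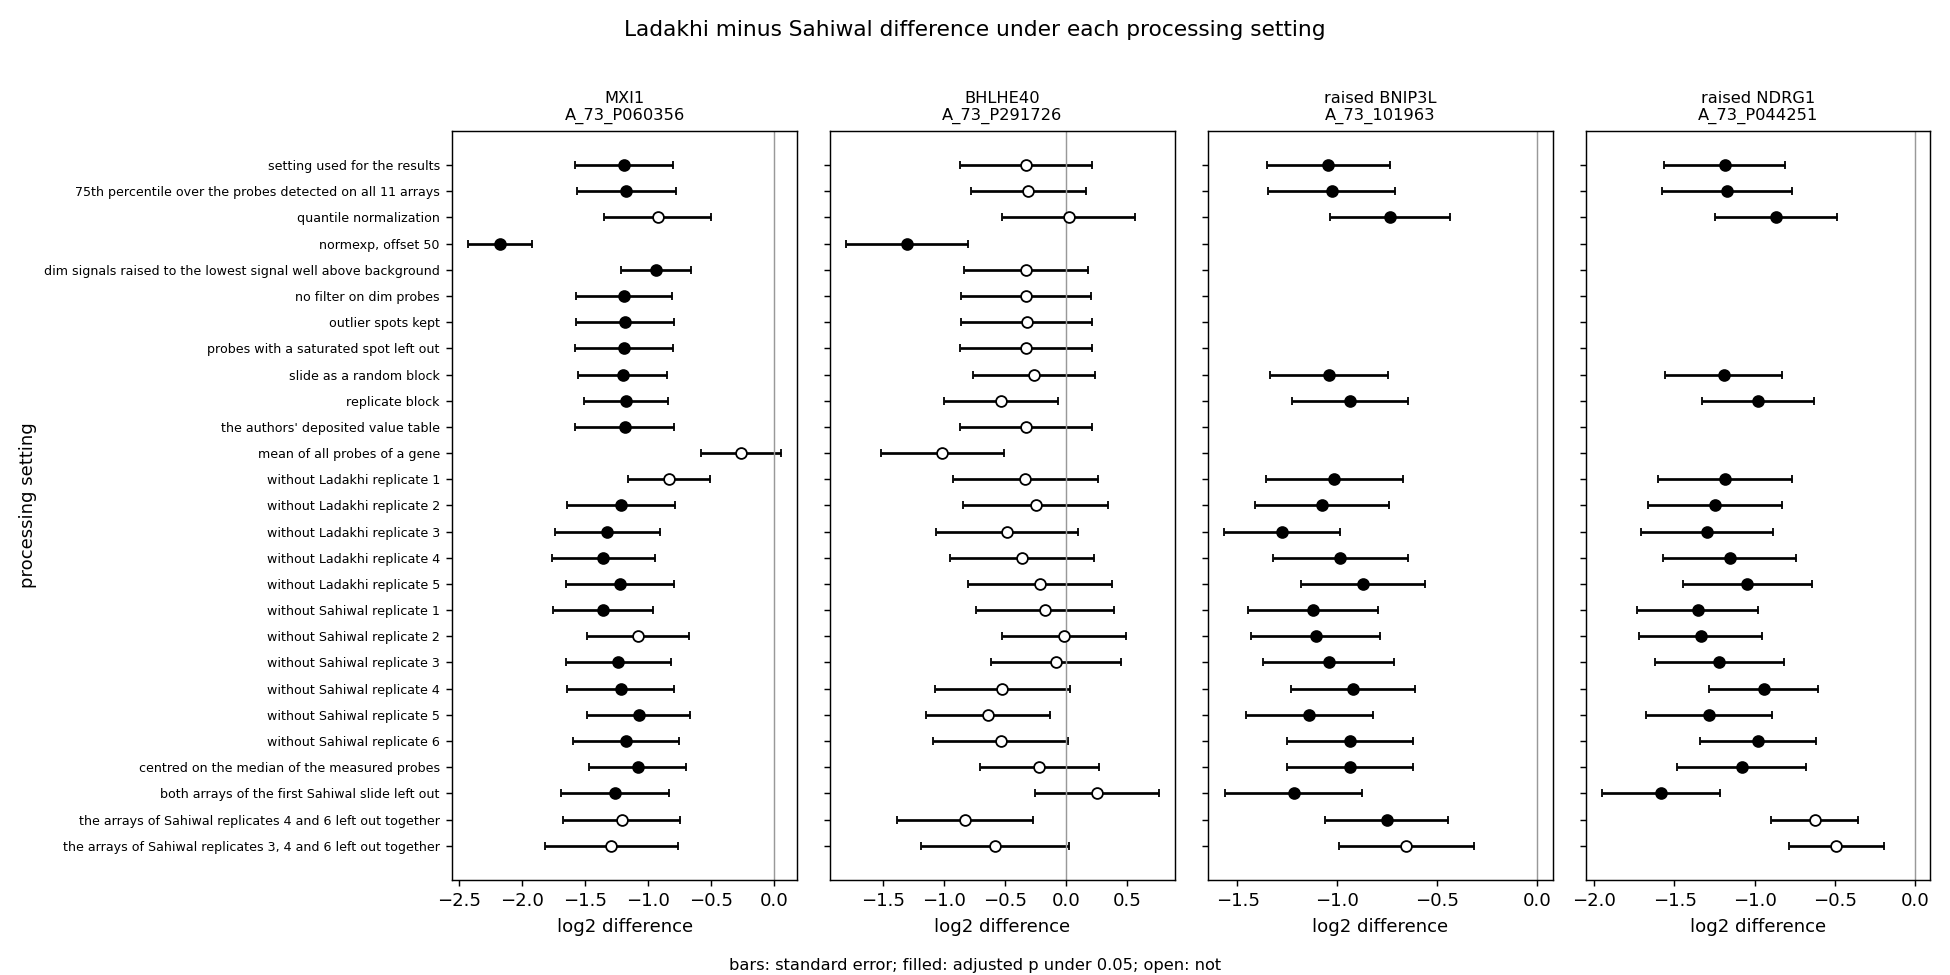
Ladakhi minus Sahiwal log2 difference with its standard error for MXI1, BHLHE40, and BNIP3L and NDRG1 with dim signals raised, under each processing setting (rows); filled points have an adjusted p under 0.05. BNIP3L is open in 1 setting and NDRG1 in 2, all of them without Sahiwal replicates 4 and 6, MXI1 is open in 6, and BHLHE40 is above 0 in 2.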

How the data were processed

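PBMC RNA of 5 Ladakhi and 6 Sahiwal cattle was measured on 1-colour arrays. The intensity values, per the file headers, are processed signals that Agilent Feature Extraction (12.0.1.1 for Ladakhi, 9.5.3.1 for Sahiwal) background-subtracted and detrended; mean or median spot and background intensities were deposited beside them. The authors' deposited value table holds log2 values that track the scanner values array by array, with column medians that differ by breed; the centring is not stated, and its columns match arrays under other replicate numbers, so it served as an alternative for the breed comparison only.

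Here, log2 signals were scaled to the 75th percentile of each array. Control spots and 294 outlier spots were left out and spots of a probe averaged. Probes flagged as detected in 4 or more animals of 1 breed or the other (17868) were fitted with limma 3.58.1 in R 4.3.3, breed as the only factor, two-sided, called at an adjusted p under 0.05; the fit was tested on simulated data. Named were all members, every probe apart, and per list at most the 2 measured genes with the largest difference; the likeness rule took the nearest non-member gene. Members and lists were chosen with earlier results of these data known. The closing section gives the effect of other scalings, background correction, filters, blocks and left-out arrays. Gene symbols came from the array files and from RefSeq names (ARS-UCD2.0); positions are on Btau_3.1. The number of arrays limits the precision.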

Additional observations from a re-analysis of the deposited data

How the results depend on the processing

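The count of members higher in Ladakhi was 0 in all alternatives run. The count of members lower was 1, and it was 0 under quantile normalization, 2 with normexp, 0 with the mean of all probes of a gene, 0 without Sahiwal replicates 4 and 6 (where MAP1LC3A and KDM5B also lost their call), 0 without Sahiwal replicates 3, 4 and 6, and 0 to 1 without each array in turn (0 without Ladakhi replicate 1 or Sahiwal replicate 2). The MXI1 difference ran from -1.36 to -0.83 without each array in turn and was -2.17 with normexp. With the percentile taken over the probes detected on all 11 arrays, it was -1.17 (limma adjusted p = 0.0272). The median difference of measured probes was -0.04, and it was -1.53 with normexp and 0.17 under quantile normalization. BHLHE40 reversed to 0.0189 under quantile normalization and 0.25 without the first Sahiwal slide, and was -1.30 with normexp (limma adjusted p = 0.0336). The raised difference ran from -1.28 to -0.87 for BNIP3L and from -1.36 to -0.94 for NDRG1 without each array in turn. Under quantile normalization it was -0.73 for BNIP3L and -0.87 for NDRG1. Of 17868 probes, 7911 were called, against 12886 with dim signals raised and 34835 of 43653 with no filter. Quantile normalization called 1509 higher and 6434 lower, against 4614 and 3297, and normexp 3088 and 8473. Deviations of same-numbered arrays correlated at -0.07 to 0.05, so the numbers do not pair the samples; with the replicate block MXI1 was -1.18 (limma adjusted p = 0.0240), BHLHE40 -0.54, BNIP3L -0.94 and NDRG1 -0.98 (both raised), the counts of members stayed 1 lower and 0 higher, and 6881 probes were called; of the named list genes, GABARAP (limma adjusted p = 0.0589) and KDM5B (limma adjusted p = 0.131) lost their call. The causes were not tested. Alternatives without both arrays of the first Sahiwal slide, without replicates 4 and 6 or 3, 4 and 6, with the median as centre, and all those of the raised differences were chosen after seeing the data. Low Ladakhi signal limits 8 of the 10 genes to bounds or to no value.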
